A study of Mus musculus with 6 samples.

Results

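The genes described here are 10 regulators of G protein signalling (RGS) of the mouse: Rgs1, Rgs2, Rgs3, Rgs4, Rgs5, Rgs10, Rgs12, Rgs16, Rgs18 and Rgs19. They were taken as every array probe set whose only gene symbol in the platform annotation is one of these names, which gave 27 probe sets for 10 of the 18193 genes that have such a probe set. Of the 10 genes, 8 had at least 1 probe set above a filter on dim signal and were tested, while Rgs16 and Rgs18 lay below it and are given as values only. The samples were mesenteric arteries, the small arteries that feed the gut, from 3 control and 3 knockout mice, with 1 array per mouse. All 6 mice were of a mixed background with contributions from FVB, SVJ129 and C57BL/6, carried loxP-flanked beta1 integrin alleles, received 1 mg of tamoxifen a day for 14 days from the age of 5 weeks and were 7 weeks old. The control mice (numbers 30, 74 and 75) had no recombinase, and the knockout mice (72, 73 and 86) carried sm22alphaCRE, a Cre recombinase driven by a promoter of smooth muscle. No group carried the recombinase without the floxed alleles, and knockout 86 is the only mouse with F rather than M beside its number.

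RGS proteins end the signal of heptahelical receptors. They bind the active, GTP-loaded alpha subunit of a heterotrimeric G protein and speed up its hydrolysis of GTP, so that the receptor's output stops sooner. In arterial smooth muscle they restrain contraction driven by receptors coupled to Gq and Gi, while several members are best known from leukocytes and platelets. By sequence, Rgs1, Rgs2, Rgs3, Rgs4, Rgs5, Rgs16 and Rgs18 belong to the small R4 family, Rgs10 and Rgs12 to the R12 family and Rgs19 to the RZ family.

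Values are normalized log2(intensity + 1), in which a difference of 1 is a 2-fold change, and differences are knockout minus control. The 2 groups were compared with limma over 10654 genes, taking for each gene the brightest of its probe sets on average, and a gene passed the test at a Benjamini-Hochberg adjusted p under 0.05. Array medians lay between 62.75 and 72.6 intensity units. The targeted gene Itgb1 was lower in each knockout array (10.51, 10.56 and 10.76) than in any control array (11.80, 11.04 and 11.20), a difference of -0.73 (SE 0.22, limma adjusted p = 0.127, exact permutation p = 0.1, the smallest that 3 arrays against 3 allow). The position of its probes relative to the floxed part was not given in the sources used here. Defining smooth muscle genes were well represented, with 7 of 7 listed markers above the filter. None of the listed markers of T cells (6 on the array), mast cells (6) or mesothelium (4) was above it. Macrophage markers were present, with a summed level of 12.32 to 12.83 in control and 13.46 to 14.97 in knockout arrays (log2 of the sum over 12 genes). RNA came from whole vessels, so fewer cells of a type and less RNA per cell cannot be told apart in any value below.

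No RGS gene passed the limma test in the knockout comparison. Of the 8 tested, 0 passed, against 2.42% of all genes tested (1.76% higher and 0.657% lower in the knockout). At an adjusted p under 0.1 there was 1, Rgs2, against 6.16% of all genes. An unadjusted p under 0.05 was found for 4, against 21.4% of all genes. In 4 the control and knockout arrays did not overlap, against 28.1% of all genes. Of these, 2 were lower in the knockout (Rgs2 and Rgs4, against 15.1% of all genes) and 2 were higher (Rgs10 and Rgs19, against 13.0%). With 8 genes these counts describe the set and were not tested against the background. The median difference was -0.17 over the 8 RGS genes and -0.05 over all genes tested. The count of 0 became 2, namely Rgs2 and Rgs19, when control 74 was left out and when limma weighted the arrays by their estimated quality. Without knockout 86, the mouse whose letter differs, the 4 differences were -0.95 (Rgs2), -0.72 (Rgs4), 0.97 (Rgs10) and 0.79 (Rgs19), and 0 of the RGS genes passed.

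**Figure D1:**
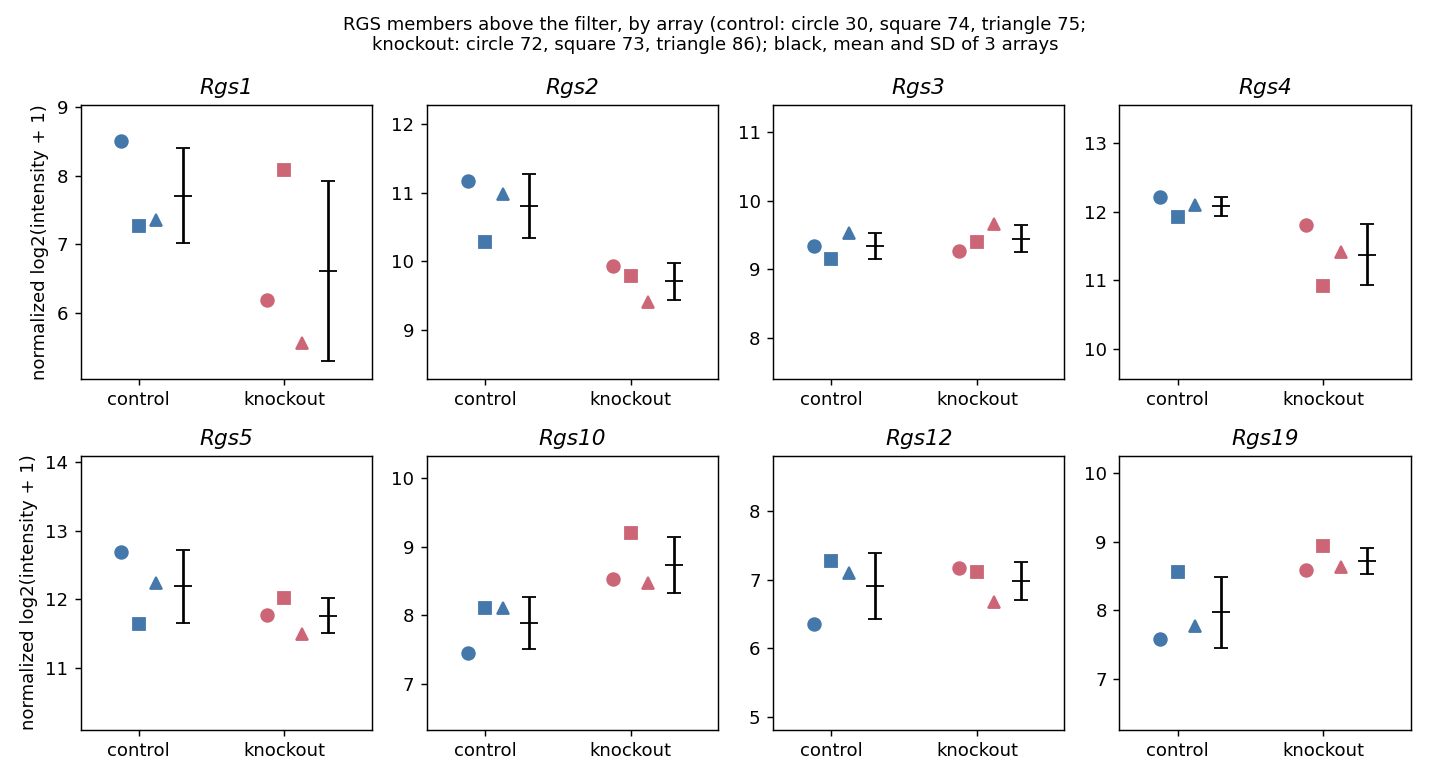
Normalized log2(intensity + 1) of the 8 RGS genes above the filter in each of the 6 arrays, on axes of equal span, with the mean and SD of 3 arrays per group in black. The groups are apart for Rgs2 and Rgs4, where the knockout is lower, and for Rgs10 and Rgs19, where it is higher, and they overlap for the other 4 genes.

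Rgs2, a small R4 protein that prefers Gq and is known as a brake on vasoconstrictor signalling and blood pressure, had the smallest p of the set. It stood at 11.17, 10.28 and 10.99 in control arrays 30, 74 and 75 and at 9.93, 9.79 and 9.41 in knockout arrays 72, 73 and 86. Every knockout array lay below every control array, and the closest pair was control 74 and knockout 72. The group means were 10.81 ± 0.47 (SD, n = 3) and 9.71 ± 0.27 (SD, n = 3), a difference of -1.10 (SE 0.26). The knockout level was thus 46.6% of control, with a 95% confidence interval from 30.3 to 71.5. The gene did not pass (limma unadjusted p = 0.00399, adjusted p = 0.0833, exact permutation p = 0.1). Without control 74, the lowest control array for this gene, the difference was -1.37 and passed (limma adjusted p = 0.0361), and over all alternatives the adjusted p lay between 0.0202 and 0.224. The 4 Rgs2 probe sets were all lower in the knockout. The 2 others above the filter stood at -1.02 (1419247_at) and -1.35 (1447830_s_at), again with no overlap between groups, and the dim 1443250_at stood at -0.85.

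The profile of Rgs2 over the 6 arrays was set beside that of 10388 tested genes, predicted transcripts left out and each centred on its own mean. The closest was Id2, an inhibitor of basic helix-loop-helix transcription factors, with a root mean square difference of 0.092 on the log2 scale. Next came Tbxa2r, the receptor of the vasoconstrictor thromboxane A2 (0.097), and Pkdcc, a secreted protein kinase (0.12). Their knockout differences were -1.13, -1.07 and -1.05 (limma adjusted p = 0.0586, 0.107 and 0.0841), so none of the 3 passed the test. All 3 did so with array weights and without control 74, as Rgs2 did, and Id2 also when probe sets of a gene were averaged and with median centring. The 3 were picked for profiles close to that of Rgs2, knockout arrays included. Differences and calls like those of Rgs2 thus follow from the choice.

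Rgs4, an R4 protein that acts on Gi and Gq and is also well known from neurons, stood at 12.21, 11.93 and 12.10 in the control arrays and at 11.81, 10.92 and 11.41 in the knockout arrays. The groups did not overlap, but knockout 72 lay only just under control 74. The difference was -0.70 (SE 0.23), or 61.5% of control (95% confidence interval 42.0 to 90.0), and did not pass (limma adjusted p = 0.153, unadjusted p = 0.0194, exact permutation p = 0.1). It shrank to -0.47 without knockout 73, the lowest array, and to -0.45 with array weights. Its other probe set above the filter, 1416287_at, stood at -1.05 with overlapping groups, and the dim 1448285_at at -0.73.

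Rgs5, an R4 protein used as a marker of pericytes and arterial smooth muscle, showed no separation of the groups. It stood at 12.70, 11.64 and 12.23 in the control arrays and at 11.77, 12.02 and 11.50 in the knockout arrays, so that control 74 lay below knockouts 72 and 73. The difference was -0.42 (SE 0.28, limma adjusted p = 0.42), with a 95% confidence interval of -1.09 to 0.24. It was -0.17 without control 30 and -0.70 without control 74. Of its 4 probe sets, all above the filter, 3 stood between -0.48 and -0.40 and 1420941_at stood at 0.08. That last probe set read 9.54 in control 30 and 6.53 in control 74, the widest spread among the Rgs5 probe sets within a group. The probe set 1420940_x_at carries the suffix x, which marks probes that similar sequences may share, and 1420942_s_at the suffix s, which marks probes common to several transcripts.

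Since Rgs2 and Rgs4 both stood lower without overlap, and Rgs4 and Rgs5 are next to each other on chromosome 1, their promoters are shown with that of Rgs10, which had the smaller p of the 2 genes that stood higher. The other, Rgs19, has 3 windows in the table, which are not printed. The sequences are from RefSeq (GRCm38.p6), each running from 250 bases before the transcription start to 50 bases after it. Capitals mark TGACG, the cyclic AMP response element half-site, TATAAA, the TATA box, and GGGCGG, the GC box, each on either strand and with overlaps allowed.
Rgs2: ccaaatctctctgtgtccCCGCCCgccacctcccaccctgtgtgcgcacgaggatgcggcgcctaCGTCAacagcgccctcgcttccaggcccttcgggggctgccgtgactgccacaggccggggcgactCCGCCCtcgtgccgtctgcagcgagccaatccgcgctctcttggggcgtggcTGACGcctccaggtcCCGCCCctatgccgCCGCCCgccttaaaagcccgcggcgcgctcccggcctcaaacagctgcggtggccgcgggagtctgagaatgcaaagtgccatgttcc
Rgs4: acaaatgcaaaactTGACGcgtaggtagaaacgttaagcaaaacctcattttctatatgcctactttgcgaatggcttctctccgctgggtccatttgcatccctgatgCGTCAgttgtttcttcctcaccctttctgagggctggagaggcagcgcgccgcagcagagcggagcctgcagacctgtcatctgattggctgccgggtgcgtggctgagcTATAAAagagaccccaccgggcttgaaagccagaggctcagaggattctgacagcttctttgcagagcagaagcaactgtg
Rgs5: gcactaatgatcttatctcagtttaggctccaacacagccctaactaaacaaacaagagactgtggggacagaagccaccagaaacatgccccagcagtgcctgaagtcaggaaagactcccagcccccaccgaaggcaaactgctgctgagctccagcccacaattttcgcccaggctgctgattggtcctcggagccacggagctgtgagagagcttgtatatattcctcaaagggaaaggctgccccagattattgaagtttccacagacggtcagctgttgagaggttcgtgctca
Rgs10: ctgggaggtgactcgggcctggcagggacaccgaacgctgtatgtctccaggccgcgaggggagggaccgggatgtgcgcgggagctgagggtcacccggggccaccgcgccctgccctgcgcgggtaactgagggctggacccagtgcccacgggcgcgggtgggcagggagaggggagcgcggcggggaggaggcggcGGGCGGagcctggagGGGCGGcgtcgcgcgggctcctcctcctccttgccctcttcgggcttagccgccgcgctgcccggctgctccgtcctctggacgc
They lie at chr1:144004100-144004399 on the minus strand (Rgs2), chr1:169747593-169747892 on the minus strand (Rgs4), chr1:169655251-169655550 on the plus strand (Rgs5) and chr7:128418123-128418422 on the minus strand (Rgs10).

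TGACG was found at 2 places in the Rgs2 promoter and at 2 in that of Rgs4, and at none in those of Rgs5 and Rgs10. It was also found at 1 place in a window of Rgs12, whose groups overlapped, and at none in those of Rgs19, Rgs3 and Rgs16. It occurs in 20.8% of the 32851 promoters of the table. TATAAA was found in the Rgs4 promoter, with its first base 31 bases before the start, and in 13.6% of all promoters. The windows of Rgs3 also held it, with first bases 100 and 177 bases before the start. GGGCGG was found 4 times in that of Rgs2 and 2 times in that of Rgs10, and in 35.7% of all promoters. Windows of Rgs3, Rgs12, Rgs16 and Rgs19 held it too, so that 6 of the 8 RGS genes and 8 of their 12 windows had it. The 4 also differed in CpG content, with 33 CpG in the Rgs2 window, 13 in that of Rgs4, 6 in that of Rgs5 and 34 in that of Rgs10. The full response element TGACGTCA and the CArG box, the site of serum response factor, were searched on both strands in the 12 windows held for 8 of the RGS genes and found in 0 of them. They occur in 1.79% and 1.63% of all promoters. These matches describe letters, not bound sites.

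Markers of several vessel cell types, smooth muscle among them, also had lower values in the knockout arrays. Over 7 genes, with Tagln given apart because its promoter drives the recombinase, their mean level stood at 12.76, 12.14 and 12.71 in the control arrays and at 12.23, 11.89 and 12.10 in the knockout arrays. All 7 were lower in the knockout and 0 passed the limma test, with a median difference of -0.43. Cnn1 and Acta2, named after their values were seen, stood at only -0.061 and -0.027. Acta2 read 14.10 in control 30, control 75 and knockout 72 alike, at the top of the scale. Quantile normalization assigns values there by rank, so the small difference of Acta2 says little about a change. The list mean overlapped between groups, with control 74 below knockout 72. The lowest p-values were those of Lmod1, which nucleates actin filaments, Synpo2, an actin-bundling protein, and Myh11, the smooth muscle myosin heavy chain. They stood at -1.20, -0.75 and -0.46 (limma adjusted p = 0.0567, 0.127 and 0.133). The pericyte list, which did not include Rgs5, had a median of -0.25 over 6 genes, with 4 lower, 2 higher and 0 past the test. Its smallest p was that of Notch3 at -0.88 (limma adjusted p = 0.107), while Cspg4 and Pdgfrb, named after their values were seen, stood at 0.49 and 0.31. All 8 endothelial markers were lower with 0 past the test (median -0.47), though Erg, named after its values were seen, stood at -0.0048. Tek, the angiopoietin receptor, stood at -0.62 and Pecam1, an adhesion molecule of endothelial junctions, at -0.86 (adjusted p = 0.091 and 0.123). All 3 Schwann cell markers were lower with 0 past the test (median -0.60), Sox10 at -0.86 (adjusted p = 0.145). Of 5 fibroblast markers 4 were higher with 0 past the test (median 0.45), Lum at 0.83 (adjusted p = 0.14). The part of these cell types in the values of Rgs2 and Rgs4 was not tested. Tagln stood at -0.33 (adjusted p = 0.231).

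Measured against the smooth muscle mean of the same array, a contrast added after the values were seen, Rgs2 remained lower without overlap. It lay at -1.60, -1.87 and -1.72 in the control arrays and at -2.30, -2.10 and -2.70 in the knockout arrays, a difference of -0.64. Rgs4 measured in this way differed by -0.24 with overlapping groups, and Rgs5 by 0.04. Against Rgs5 in the same array, Rgs2 again differed without overlap, by -0.68, and Rgs4 by -0.28 with overlap. The exact permutation p was 0.1 for both Rgs2 contrasts, 0.4 and 0.7 for those of Rgs4 and 0.8 for Rgs5. Over the 12 within-array contrasts tested, the smallest Benjamini-Hochberg adjusted value of these exact permutation tests was 0.171. The contrasts against the smooth muscle mean depend on the genes of that list. Its member Lmod1 stood at -1.20, below Rgs2 at -1.10, while the other genes of the list fell less than Rgs2. The list also includes Acta2, which read at the top of the scale.

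**Figure D2:**
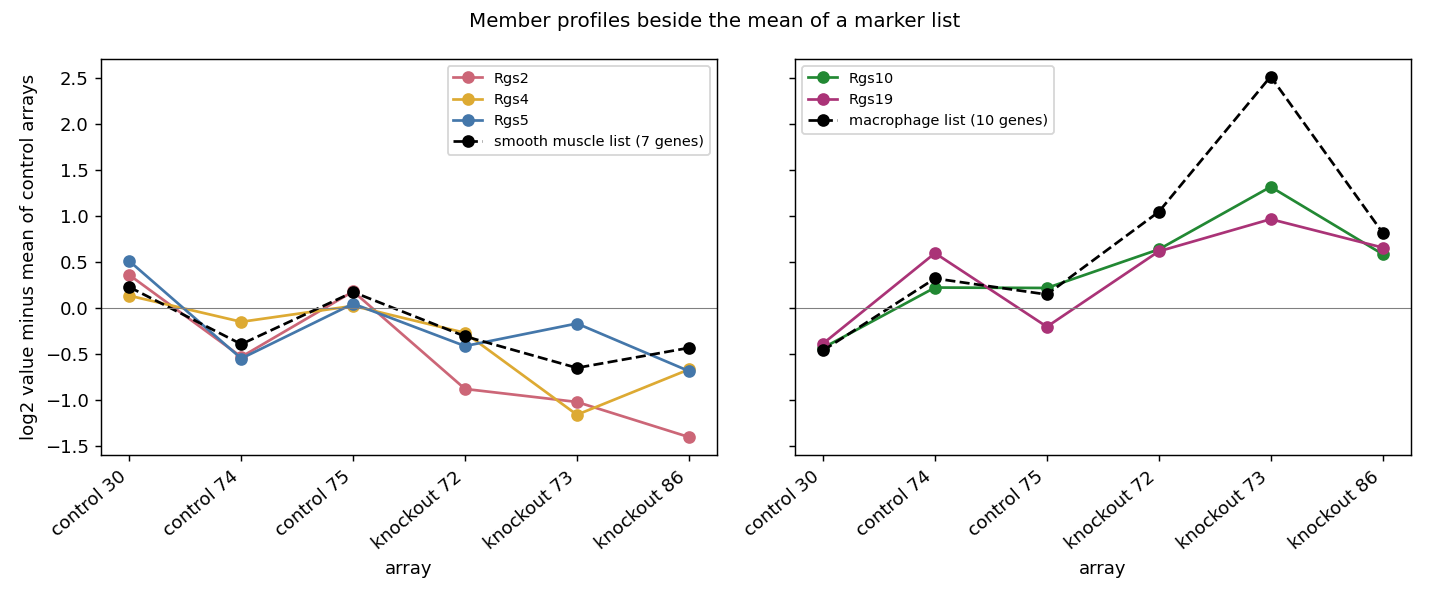
Log2 value minus the mean of the 3 control arrays, for Rgs2, Rgs4 and Rgs5 beside the mean of 7 smooth muscle markers (left) and for Rgs10 and Rgs19 beside the mean of 10 macrophage markers (right), by array. Rgs5 lies on both sides of the dashed smooth muscle line while Rgs2 lies below it in all 3 knockout arrays, and both Rgs10 and Rgs19 peak with the macrophage list in knockout 73.

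Rgs10, a short R12 protein that acts on Gi and is abundant in macrophages and microglia, had the smallest p among the genes that stood higher. It read 7.46, 8.11 and 8.11 in the control arrays and 8.53, 9.21 and 8.48 in the knockout arrays. The knockout arrays all lay above the control arrays, with knockout 73 highest and control 30 lowest. The difference was 0.84 (SE 0.27), or 179% of control (95% confidence interval 116 to 278). It did not pass (limma adjusted p = 0.143, unadjusted p = 0.0159, exact permutation p = 0.1). It had 1 probe set, and its difference lay between 0.61 and 0.97 over all alternatives that kept the same scale. By the same measure of likeness as for Rgs2, its nearest profiles were those of Capg, an actin filament capping protein (root mean square difference 0.13), Kcp, a modulator of BMP signalling (0.14), and Dnm1, the endocytic GTPase dynamin 1 (0.15). They stood at 0.85, 0.73 and 0.70 (limma adjusted p = 0.149, 0.114 and 0.131). These genes too were picked by profile, so differences near that of Rgs10 follow from the choice.

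Rgs19, an RZ protein also known as GAIP that acts on Gi-type alpha subunits, read 7.58, 8.56 and 7.76 in the control arrays and 8.58, 8.93 and 8.62 in the knockout arrays. The groups did not overlap, though control 74 almost reached knockout 72. The difference was 0.74 (SE 0.27), or 167% of control (95% confidence interval 108 to 259), and did not pass (limma adjusted p = 0.179, unadjusted p = 0.0272, exact permutation p = 0.1). Without control 74 it was 1.04 and passed (limma adjusted p = 0.0423), and over all alternatives the adjusted p lay between 0.039 and 0.385. The other probe set, 1434940_x_at, whose suffix marks possibly shared probes, stood at 0.73 with no overlap. Its control mean of 6.36 lay below the filter value of 6.5, so it passed the filter through the knockout arrays. Its knockout arrays were close together, with an SD of 0.043 against 0.36 in the control arrays.

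The macrophage markers stood higher together with Rgs10 and Rgs19. Their mean over 10 genes was 8.39, 9.18 and 9.0 in the control arrays and 9.90, 11.37 and 9.67 in the knockout arrays. All 10 were higher, 0 passed the limma test and the median difference was 1.61. Of these, Cd68, a lysosomal glycoprotein, had a control mean of 6.25 and passed the filter through the knockout arrays. Among them were the mannose receptor gene Mrc1 at 1.42 (adjusted p = 0.0668) and the complement genes C1qa at 1.29 (adjusted p = 0.0773) and C1qb at 1.75 (adjusted p = 0.123). Mertk, named after its values were seen, stood at only 0.36 with overlapping groups (limma adjusted p = 0.528). Knockout 73 was the highest array and control 30 the lowest, both for this list and for Rgs10 and Rgs19. The macrophage mean of the same array, Cd68 included, also served as a reference, a contrast added after the values were seen. Against it both genes turned lower in the knockout, a sign that follows because the list mean rose more than either gene. Rgs10 differed by -0.61 without overlap and Rgs19 by -0.71 with overlap (exact permutation p = 0.1 and 0.2, adjusted over the 12 contrasts 0.171 and 0.267). The part of these cells in the 2 differences was not tested.

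Rgs1, an R4 protein of lymphocytes and other leukocytes that dampens chemokine receptor signals, varied within both groups. It read 8.51, 7.26 and 7.35 in the control arrays and 6.19, 8.08 and 5.56 in the knockout arrays. Control 30 and knockout 73 were highest and the groups overlapped. The difference of -1.10 (SE 0.66, limma adjusted p = 0.376) has a 95% confidence interval from -2.66 to 0.47, and it ranged from -1.84 without knockout 73 to -0.57 without knockout 86. The markers of T cells were below the filter throughout, and the B and plasma cell list had 1 gene above it, Jchain, named after its values were seen, at 12.23 in knockout 73 and between 6.21 and 8.68 in the other arrays.

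Rgs18, an R4 protein of platelets and megakaryocytes, and Rgs16, an R4 protein induced by inflammatory signals, were below the filter in all of their probe sets. The Rgs18 probe set 1420398_at read 4.53, 5.35 and 4.33 in the control arrays and 5.87, 6.09 and 5.32 in the knockout arrays, with knockout 86 just below control 74. The other, 1449856_at, read 5.02 to 5.81 in control and 5.02 to 6.10 in knockout arrays. The 2 probe sets thus stood apart, at 1.02 and 0.11 on the log2 scale. The platelet and megakaryocyte list had a median difference of -0.02 over 5 genes tested, with 2 higher, 3 lower and 0 past the test. Gp1bb stood at 0.77 and Ppbp, named after its values were seen, at -1.04 (limma adjusted p = 0.19 and 0.356). The 3 Rgs16 probe sets stood at 0.33, 0.74 and -0.83, each with overlapping groups, and the brightest of them, 1455265_a_at, read 5.67 to 6.58 in control and 6.12 to 7.32 in knockout arrays.

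Rgs3, an R4 gene with long and short protein forms, gave probe sets that pointed in different directions. Its brightest, 1425296_a_at, read 9.35, 9.15 and 9.53 in the control arrays and 9.28, 9.40 and 9.66 in the knockout arrays, a difference of 0.10 (SE 0.16, limma adjusted p = 0.746, 95% confidence interval -0.28 to 0.49). The groups overlapped throughout. The probe set 1425701_a_at read 6.64, 6.08 and 7.08 in control and 7.25, 7.37 and 7.75 in knockout arrays, a difference of 0.85 with no overlap. The probe set 1449516_a_at read 8.76, 8.96 and 8.81 in control and 8.60, 8.70 and 8.34 in knockout arrays, a difference of -0.29, also with no overlap.

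This pair of Rgs3 probe sets was chosen after its values were seen. The level of the first minus the second within an array was -2.12, -2.88 and -1.73 in the control arrays and -1.36, -1.33 and -0.60 in the knockout arrays. The group means were -2.24 and -1.10, a difference of 1.15. Because the pair was picked for moving in opposite directions without overlap, the separation of this contrast was fixed by the choice, and no test was made of it. The suffix a of both marks probes that match several transcripts of 1 gene, and the Rgs3 transcripts that each detects were not given in the sources used here. Of the 17 RGS probe sets above the filter, 9 had no overlap between groups, against 26.3% of all probe sets above it. The 9 include 1434940_x_at of Rgs19, which passed the filter through its knockout arrays. None passed the limma test by probe set, against 1.51% of all, and probe sets of a gene are not independent of each other.

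**Figure D3:**
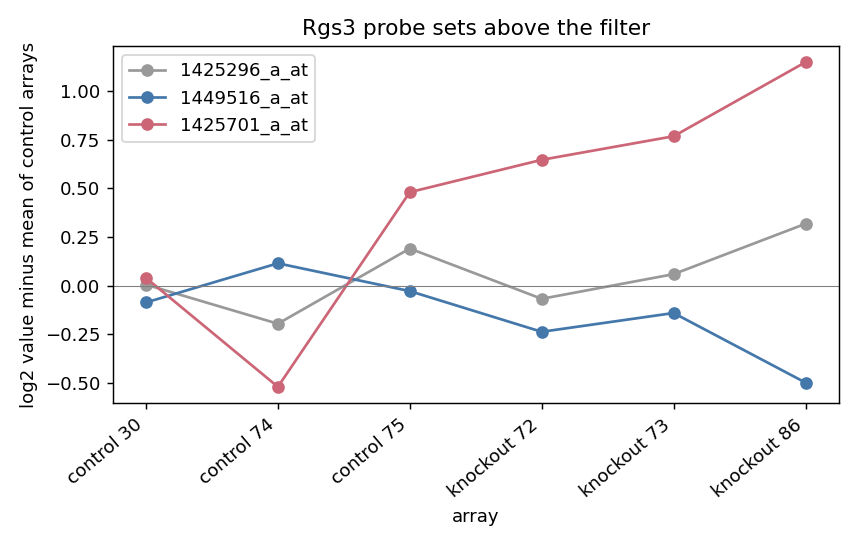
Log2 value minus the mean of the 3 control arrays for the 3 Rgs3 probe sets above the filter, by array. The knockout arrays are above the control arrays for 1425701_a_at and below them for 1449516_a_at, and the groups overlap for 1425296_a_at.

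Rgs12, a long R12 protein with several interaction domains beside its RGS domain, read 6.35, 7.27 and 7.09 in the control arrays and 7.16, 7.10 and 6.67 in the knockout arrays. The lowest array was control 30 and the groups overlapped. The difference was 0.08 (SE 0.27, limma adjusted p = 0.898), with a 95% confidence interval of -0.56 to 0.71, and it turned to -0.20 without control 30. The other 2 probe sets were below the filter, at 0.39 and 0.46.

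**Figure D4:**
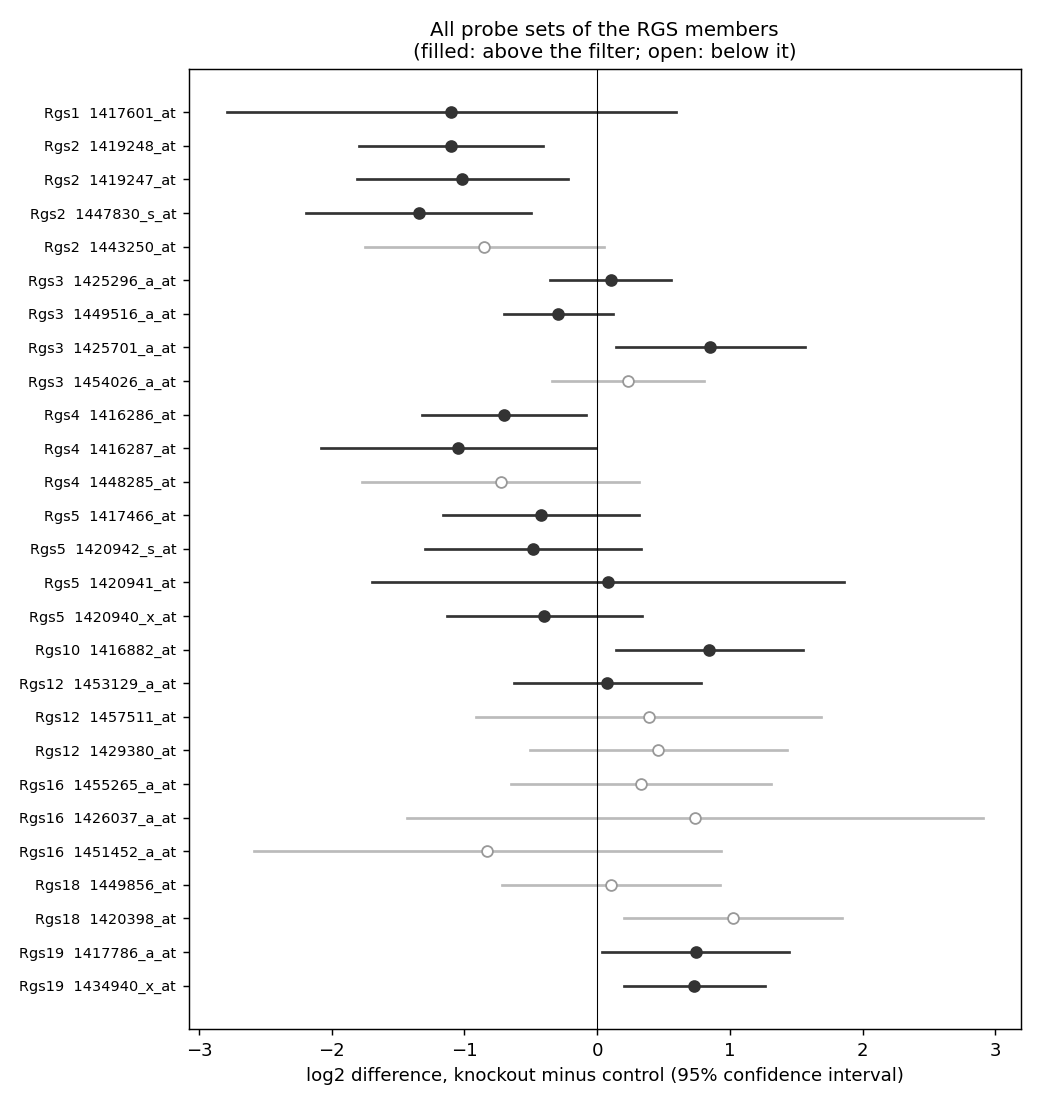
Log2 difference, knockout minus control, with its 95% confidence interval from limma, for all 27 RGS probe sets, grouped by gene. All probe sets of Rgs2 and Rgs4 lie below 0 and both of Rgs19 above it, and those of Rgs3, Rgs5 and Rgs16 fall on both sides.

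The other genes of G protein signalling were followed in 9 lists, of which 71 genes were tested. Of these, 4 passed the limma test, all higher in the knockout, against 2.42% of all genes (1.76% higher and 0.657% lower), and the median difference was -0.03 against -0.05 over all genes. Of the RGS genes outside the 10, 4 were tested and 0 passed, with differences between -0.35 and 0.28 (lowest adjusted p 0.402). Of the RGS-homology RhoGEF and Axin genes, 0 of 5 passed, with a range of -0.23 to 0.25. Of the G protein alpha subunits, which include the Gi and Gq types that RGS proteins act on, 0 of 10 passed. The smallest p was that of Gna13, an activator of RhoGEFs, at 0.44 (limma adjusted p = 0.127). Gnb4 was the only one of 11 beta and gamma subunits to pass. It read 9.42, 9.15 and 9.45 in control and 10.33, 10.22 and 10.41 in knockout arrays, and rose by 0.98 (SE 0.14, limma adjusted p = 0.0207). With 1 array left out, it passed only without control 74 (highest adjusted p 0.103, without knockout 72).

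Among the effectors, the adenylyl cyclases stood on both sides of 0, with 1 past the test. Adcy7, an isoform abundant in leukocytes, rose by 1.503 (SE 0.17, limma adjusted p = 0.0107), from 9.71, 9.82 and 9.62 in control to 10.998, 11.53 and 11.13 in knockout arrays. It lost its call without control 75 (adjusted p = 0.0567). Adcy5, a cyclase inhibited by Gi, stood at -1.12 (adjusted p = 0.0625), Adcy1 at -1.84 (adjusted p = 0.155) and the Gq effector Plcb4 at -0.48 (adjusted p = 0.158). With probe sets of a gene averaged, they stood at -0.66, -1.84 and -0.48 (limma adjusted p = 0.0977, 0.159 and 0.324). Of 11 phospholipase C beta and cyclase genes, 1 passed and 7 were lower. Receptor kinases and arrestins had 0 of 6 past the test, with Arrb1 at -0.61 and Arrb2 at 0.69 (adjusted p = 0.112 and 0.173). The other G protein modulators had 0 of 8.

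Among 13 vasoactive receptors tested, 1 passed. F2r, the thrombin receptor PAR1, rose by 0.91 (SE 0.17, limma adjusted p = 0.0442), from 11.57, 11.30 and 11.84 to 12.55, 12.37 and 12.52. It lost its call in each of the 6 fits that left out 1 array, with adjusted p-values from 0.061 without control 74 to 0.164 without knockout 72. The endothelin receptor gene Ednrb stood at -0.91, Tbxa2r at -1.07 and the sphingosine 1-phosphate receptor gene S1pr3 at -0.61 (adjusted p = 0.0958, 0.107 and 0.111), each with no overlap between groups. Of the 13 receptors 5 had no overlap, against 28.1% of all genes tested. With probe sets of a gene averaged, Ednrb stood at -0.63, Tbxa2r at -1.07 and S1pr3 at -0.77 (limma adjusted p = 0.285, 0.108 and 0.0548). Of 3 leukocyte chemoattractant receptors tested, Ccr2, the receptor that recruits monocytes, rose by 2.35 (SE 0.28, limma adjusted p = 0.0133), from 5.22, 5.91 and 5.78 to 8.31, 8.20 and 7.46. Its control level lay below the filter value of 6.5, so it passed the filter through the knockout arrays, and it lost its call without control 75 or without knockout 72 (highest adjusted p 0.0667). C3ar1, the receptor of complement fragment C3a, stood at 2.50 (limma adjusted p = 0.131) and likewise passed the filter through the knockout arrays, its control arrays reading 4.86, 5.76 and 5.79. The remaining receptor, Cx3cr1, named after its values were seen, stood at 0.29 with overlapping groups (limma adjusted p = 0.302). Ccr2 and C3ar1 stood higher beside the macrophage markers given above, and the part of those cells in their values was not tested.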

How the data were processed

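The deposited table holds 1 linear intensity per probe set and array. The authors' probe summary and scaling were not given in the sources used here. Precision is limited by having 3 arrays in each group. Gene names come from the 2016 platform annotation, where 34945 probe sets have 1 symbol, 932 several and 9160 none. The annotation's gene identifiers matched the RefSeq table (GRCm38.p6) for all 10 RGS genes.

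Intensities were taken as log2(intensity + 1), quantile normalized, and filtered at the median of the probe set means (6.5), which left 17473 probe sets and 10654 genes, the brightest probe set standing for each gene. Groups were compared with limma 3.58.1 (R 4.3.3; lmFit, eBayes, 2-sided) with Benjamini-Hochberg adjustment over all genes tested. Differences of single probe sets come from a fit without the filter. The count of probe sets past the test comes from a fit of the 17473 above it. The procedure was tested on simulated data. Promoters were scanned with Python 3.11.15.

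The RGS genes, the 9 pathway and the 14 marker lists were chosen with earlier results of these data known. Text names the 10 genes, up to 4 genes per pathway list and up to 3 per marker list with the smallest p, Itgb1, Tagln, and the 3 nearest profiles (predicted transcripts left out) of each RGS gene past the threshold, or, since there were none, of the 2 with the smallest p. Nothing in the labels states litters or days, so an effect of either that followed genotype cannot be told apart from it. The p-values rest on the spread between these mice, which limma moderates over all genes tested.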

Additional observations from a re-analysis of the deposited data

How the results depend on the processing

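Alternatives were another filter, probe set rule, normalization, pseudocount, variance prior, array weights, threshold, and leaving out each array. The count of all genes past the threshold, 258, was 174 with no filter, 141 with the 70th percentile filter, 1131 with array weights and 45 to 240 with 1 array left out. RGS genes past it numbered 0 in the main setting, 2 with array weights (Rgs2 at -1.08, Rgs19 at 0.80), 1 at an adjusted p under 0.1 and 0 to 2 with 1 array left out (range of Rgs2 -1.37 to -0.925, of Rgs19 0.55 to 1.04). Rgs3 turned to -0.094 with array weights and ranged from -0.0044 to 0.20 with 1 array left out. Rgs12 ranged from -0.20 to 0.26. The other RGS genes kept their direction in these settings. The 4 pathway genes became 2 with no filter, 10 with array weights, 0 at an adjusted p under 0.01 and 0 to 5 with 1 array left out. Marker genes, 0 in the main setting, numbered 1 with median centring, 9 with array weights, 5 at an adjusted p under 0.1 and 0 to 3 with 1 array left out. Of the contrasts added after seeing the data, the direction turned for Rgs5 against the smooth muscle list (0.042) and for Rgs10 (-0.61) and Rgs19 (-0.71) against the macrophage list. Each of these signs follows from the list mean moving further than the gene. The cause of the gene differences was not tested. Itgb1 stayed lower in all settings. No paired analysis was possible because the groups share no animal numbers. The table holds no detection calls, so how far Rgs16 and Rgs18 exceed background is unknown.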

Other observations

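Of the 10 RGS genes, 6 lie on chromosome 1. In the RefSeq order of protein-coding genes, Rgs2 is followed by Rgs13, Rgs1, Rgs21 and Rgs18, and Rgs16 follows Rgs8. Of the neighbours Rgs4 and Rgs5, the groups were apart for the first and overlapped for the second, but Rgs4 measured against Rgs5 within arrays differed by -0.28 with overlapping groups (exact permutation p = 0.7). On its other side Rgs5 is next to Nuf2, a kinetochore gene named after its values were seen, which read 4.30, 4.04 and 4.74 in control and 8.74, 8.60 and 9.51 in knockout arrays. Nuf2 rose by 4.59 (SE 0.29, limma adjusted p = 0.00144) and kept its call in all alternatives that tested it. Its control arrays lay below the filter value of 6.5, so it was tested through its knockout arrays, and with no filter its adjusted p was 0.00643.

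Within the control group, array 30 read highest for Rgs1, Rgs2, Rgs4 and Rgs5 and lowest for Rgs10, Rgs12 and Rgs19. The same array had the lowest adipocyte marker mean of the control group, 8.39 against 10.68 and 10.47, over 3 genes tested. It also had the lowest control mean of the macrophage, fibroblast, endothelial and lymphatic endothelial lists. Its smooth muscle and pericyte means were the highest of the control group. In the knockout group, array 86 had the lowest adipocyte mean, 8.67, and the lowest values of Rgs1, Rgs2, Rgs5, Rgs10 and Rgs12. Its macrophage, pericyte, endothelial, lymphatic endothelial, fibroblast and Schwann cell means were also the lowest of that group. The adipocyte list was thus not alone in either group.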
